A study of Mus musculus with 4 samples.

Results

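The expression of 10 genes that handle iron and haem was examined in alveolar macrophages (AMs), which reside in the airspace of the lung. These members were taken by symbol from a table of 54532 genes, and all 10 were found and tested. Tfrc, Steap3, Slc11a2 and Slc11a1 serve iron uptake and movement across membranes. Fth1, Ftl1 and Ncoa4 serve iron storage and its release. Hmox1 degrades haem, Slc40a1 exports iron, and Ireb2 senses iron. The libraries came from AMs purified from lungs of female wild-type mice, on a BALB/c background and adult according to the methods of the study. The control group held 2 libraries from mice without a tumor, and the tumor group held 2 libraries from mice that had carried 4T1 cells, a mouse mammary carcinoma line injected into the mammary fat pad, for 2 weeks. The study describes the isolation of AMs for microscopy and for RNA-seq together, but states no gate for the sequenced cells as such. For microscopy the study took AMs as CD45+ CD11b- CD11c+ SiglecF+ cells, a gate that should leave out neutrophils, eosinophils and hepatocytes. How many mice gave each library, and whether mice were pooled, is not given in the sources used here, so the p-values measure the spread between libraries, which may be technical.

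Macrophages take up iron bound to transferrin, and they also recover it from haem when they clear old red cells. Haem is opened by haem oxygenase, the freed iron is stored in ferritin or leaves the cell through ferroportin, and ferritin is broken down again when its receptor NCOA4 carries it to the lysosome. The RNA-binding proteins IRP1 and IRP2 watch the iron level. When iron is scarce they bind a hairpin called the iron-responsive element (IRE). Binding in the 5′ untranslated region (UTR) blocks translation, and binding in the 3′ UTR stabilises the mRNA. AMs also meet iron that is inhaled, and NRAMP1 in their phagosomes withholds metal from microbes.

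The hairpins are shown because they divide the members into those whose translation IRPs control and those whose mRNA level IRPs control, and the counts report on the latter directly. The letters searched were CNNNNNCAGTGN followed by 5 further bases, read on the transcript strand, with the last base of the loop not G and with at least 4 of the 5 bases on each side of the loop able to pair. Reference transcripts of build GRCm38 (GENCODE) were used, and capitals mark the 6-base loop.
Fth1, 5′ UTR, chr19:9982732-9982760, plus strand: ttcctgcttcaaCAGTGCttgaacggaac
Ftl1, 5′ UTR, chr7:45459779-45459807, minus strand: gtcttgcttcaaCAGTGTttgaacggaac
Slc40a1, 5′ UTR, chr1:45925465-45925493, minus strand: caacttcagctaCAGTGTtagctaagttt
Tfrc, 3′ UTR, chr16:32631219-32631247, plus strand: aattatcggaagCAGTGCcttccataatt
Tfrc, 3′ UTR, chr16:32631598-32631626, plus strand: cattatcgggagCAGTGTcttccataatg
Tfrc, 3′ UTR, chr16:32631663-32631691, plus strand: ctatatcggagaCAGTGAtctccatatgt
Tfrc, 3′ UTR, chr16:32631710-32631738, plus strand: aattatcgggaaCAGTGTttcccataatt
Slc11a2, 3′ UTR, chr15:100395153-100395181, minus strand: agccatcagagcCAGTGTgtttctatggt

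The 2 ferritin genes and the exporter thus held 1 match each near the start of the message, and Tfrc held 4 near its end. In these 7 matches 5 of 5 bases paired, and in Slc11a2 4 of 5 paired. The Slc11a2 match lay in 1 of its annotated coding transcripts, so it belongs to part of that gene's mRNA, which counts per gene cannot separate. Each match of Ftl1, Slc40a1 and Tfrc likewise lay in 1 annotated coding transcript, and that of Fth1 in 4. Counts per gene do not give the share of these mRNAs that holds a match. Of 21901 protein-coding genes, 0.653% held such a match in a 5′ UTR and 3.03% in a 3′ UTR, and 0.105% and 0.457% when 5 pairs were required. These letters were not found in the UTRs of the coding transcripts of Slc11a1, Hmox1, Ncoa4, Steap3 or Ireb2. Hairpins with other loop letters are missed by this search, in Tfrc as in the other genes.

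Library totals ranged from 16167147 to 19205737 counts. Values are given as CPM, counts brought to a library total of 1000000 after scaling by TMM, a method that assumes most genes do not change. Differences were tested with the quasi-likelihood test of edgeR and Benjamini-Hochberg adjustment over the 14256 genes tested, with a threshold of 0.05. A count of 3 or fewer, which corresponds to 0.153 to 0.190 CPM, was read as the floor and covers counting error only. The AM identity genes were present, with 14 of 14 tested and a summed level of 16427 and 16572 CPM in the control and 12565 and 12707 CPM in the tumor libraries. Markers of granulocytes and hepatocytes were far higher in the tumor than in the control libraries. The 10 neutrophil genes summed to 48.0 and 48.1 CPM in the control against 3847 and 3810 CPM in the tumor libraries, the 5 eosinophil genes to 0.480 and 0.507 against 2224 and 2204 CPM, and the 10 hepatocyte genes to 0.587 and 1.14 against 683 and 677 CPM. The 9 monocyte and interstitial macrophage genes summed to 40.7 CPM in both control libraries and to 36.3 and 38.4 CPM in the tumor libraries, with 2 of 8 tested genes called higher and 4 lower. In bulk RNA, fewer cells of a type and less RNA per cell cannot be told apart.

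In tumor-bearing mice the transcripts of the iron exporter Slc40a1 and of the phagosomal metal transporter Slc11a1 were about an order of magnitude higher, and Hmox1, the haem-degrading enzyme, was 4.28-fold lower. The storage genes Fth1 and Ftl1 were lower by a small amount, and Ncoa4, the ferritin receptor, was 1.96-fold lower. Tfrc did not pass the threshold. Of the 10 members 9 were called, 2 higher and 7 lower, where 53.8% of all genes tested were called, 29.0% higher and 24.8% lower. At least 2-fold changes were seen in 3 of 10 members, against 15.9% of all genes. In each direction this was 2 members higher, against 12.9% of all genes, and 1 member lower, against 3.01%. The median log2 fold change of the members was -0.34, and that of all genes tested was 0.02. The CPM ranges of the groups did not overlap for any of the 10 members, as for 75.1% of all genes tested.

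The direction of the small changes depended on how the libraries were scaled. Under TMM scaling 12 of the 14 AM identity genes were called lower and 1, Ear1, was called higher. The eosinophil markers were higher in the same libraries, and their part in the level of Ear1 was not tested. When the libraries were scaled so that the mean log count of these 14 genes stayed level, single genes of the list still ranged from -1.63 (Fabp4) to 1.45 (Ear1) on the log2 scale. The median of all genes then moved to 0.51, and 5 members were called higher and 2 lower in place of 2 and 7, where 75.0% of all genes were called, 69.9% higher and 5.08% lower. Slc40a1 and Slc11a1 were called higher and Hmox1 and Ncoa4 lower under both scalings and under every alternative run. For the other members the value under scaling on AM identity genes is given with each gene.

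**Figure D1:**
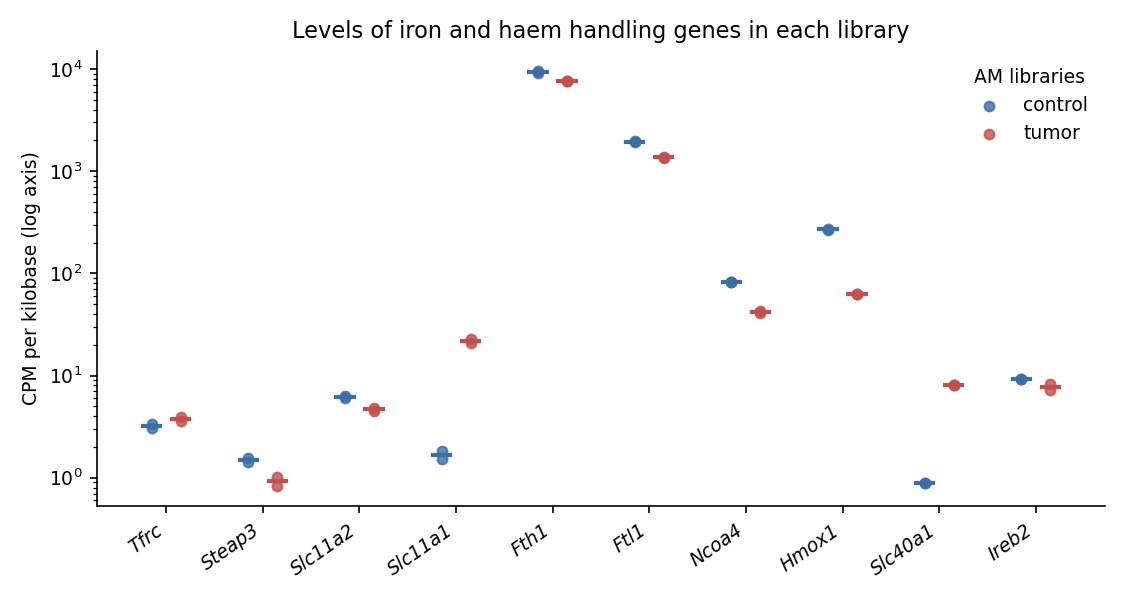
Levels of the 10 members in each AM library, as CPM per kilobase of gene model on a log axis, with points for libraries and bars for the mean of the 2 control or 2 tumor libraries. Fth1 and Ftl1 sit highest in both groups, Slc40a1 moves from 0.889 to 8.10 and Slc11a1 from 1.68 to 21.8, whereas Hmox1 moves from 269 to 62.9.

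Levels of different genes are compared per length of the gene model. Fth1 led in the control libraries with 9252 ± 247 CPM per kilobase (SD, n = 2), followed by Ftl1 with 1941 ± 21.8, Hmox1 with 269 ± 6.59 and Ncoa4 with 82.7 ± 0.450. Lower levels were found for Ireb2 at 9.26 ± 0.0477, Slc11a2 at 6.14 ± 0.158 and Tfrc at 3.21 ± 0.207 CPM per kilobase. Slc11a1 at 1.68 ± 0.205 and Steap3 at 1.501 ± 0.103 overlapped between libraries, and Slc40a1 was last at 0.889 ± 0.00770. In the tumor libraries the first 4 genes held the same order, with 7557 ± 48.2, 1365 ± 14.96, 62.9 ± 0.127 and 42.1 ± 1.20 CPM per kilobase. Slc11a1 came next at 21.8 ± 1.52. Slc40a1 at 8.10 ± 0.0938 and Ireb2 at 7.78 ± 0.812 overlapped between libraries. Steap3 was then last at 0.924 ± 0.122 CPM per kilobase. By length-scaled level, the exporter thus passed Tfrc, Slc11a2 and Steap3, each of which lay above it in the control libraries.

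Among the uptake genes, Tfrc (ENSMUSG00000022797, chromosome 16, 32608920 to 32632794, GRCm38 coordinates as elsewhere below) encodes transferrin receptor 1, the main door for iron on transferrin, and held the 4 matches shown above. The control libraries held 389 and 299 counts of it and the tumor libraries 425 and 435, or 20.8 and 18.9 against 24.5 and 22.2 CPM. Both tumor libraries lay above both control libraries, but the gap between the groups was smaller than the difference between the control libraries. The log2 fold change was 0.23 ± 0.0988 (SE), with a 95% interval, not adjusted for the number of genes, from 0.03 to 0.43 and an edgeR adjusted p of 0.0523. Over the 13 alternatives the adjusted p ranged from 3.89e-08 to 0.363, and 5 of them called Tfrc higher, among them scaling on AM identity genes at 0.72.

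Steap3 (chromosome 1, 120190757 to 120272705) encodes the ferric reductase that prepares endosomal iron for transport. It had few counts, 153 and 142 in the control and 100 and 94 in the tumor libraries. In CPM this was 8.16 and 8.997 against 5.77 and 4.79, with no overlap. The log2 fold change was -0.70 ± 0.169 (SE; edgeR adjusted p of 0.000891). Scaling on AM identity genes gave -0.21 with an adjusted p of 0.272.

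Slc11a2 (chromosome 15, 100387898 to 100425072) encodes DMT1, which moves ferrous iron out of the endosome. Its level was 38.3 and 39.7 CPM in the control and 30.7 and 28.6 CPM in the tumor libraries. The tumor libraries were lower by more than either pair differed, with a log2 difference of -0.40 ± 0.0783 (SE; edgeR adjusted p of 9.65e-05). Scaling on AM identity genes turned the value to 0.10 with an adjusted p of 0.265, so no direction holds for this gene under both scalings.

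Slc11a1 (ENSMUSG00000026177, chromosome 1, 74375195 to 74386062) encodes NRAMP1, the relative of DMT1 that pumps divalent metals out of phagosomes of macrophages and neutrophils. The control libraries held 127 and 90 counts of it and the tumor libraries 1327 and 1660, or 6.78 and 5.70 against 76.6 and 84.6 CPM. The change was 12.8-fold, a log2 fold change of 3.68 ± 0.0956 (SE; edgeR adjusted p of 1.11e-22). Over the 13 alternatives the log2 fold change ranged from 3.55 to 4.18. Its relative Slc11a2 was called lower under TMM scaling, so these related genes moved apart. In the same libraries 10 of 10 neutrophil markers were higher, 4 of them at the floor in both control libraries and Elane at 0 there, and 5 of 5 eosinophil markers were higher, with Prg3 at 0 in both control libraries. Their part in the level of Slc11a1 was not tested.

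Among the storage genes, Fth1 (ENSMUSG00000024661, chromosome 19, 9982703 to 9985092) encodes the ferritin heavy chain, which oxidises iron as it enters the ferritin shell. It was the gene ranked 2 by counts in both control libraries and 4 in both tumor libraries, and held 0.767% and 0.797% of all counts in the control and 0.672% and 0.666% in the tumor libraries. The gene was at 7861 and 8164 CPM in the control and 6574 and 6515 CPM in the tumor libraries. The tumor libraries were lower by 1.22-fold, with a log2 difference of -0.29 ± 0.0149 (SE; edgeR adjusted p of 7.70e-16). Under scaling on AM identity genes Fth1 was instead called higher, by 0.20 on the log2 scale.

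Ftl1 (ENSMUSG00000050708, chromosome 7, 45457944 to 45459884) encodes the ferritin light chain, which helps the iron core to form. It was at 2581 and 2622 CPM in the control and 1815 and 1843 CPM in the tumor libraries. The libraries of a group lay close together, and the tumor libraries were 1.42-fold lower, with a log2 difference of -0.51 ± 0.0171 (SE; edgeR adjusted p of 5.31e-20). Scaling on AM identity genes left -0.01 with an adjusted p of 0.532. Ferritin genes have near-identical copies that can share their reads. The largest such row, Ftl1-ps1, had 935, 870, 587 and 693 counts in control replicates 1 and 2 and tumor replicates 1 and 2, and adding all such rows to Fth1 and Ftl1 changed no call.

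Ncoa4 (ENSMUSG00000056234, chromosome 14, 32159865 to 32179855) encodes the receptor that delivers ferritin to lysosomes. It was at 771.1 and 777 CPM in the control libraries and 402 and 386 CPM in the tumor libraries. Both tumor libraries were near the middle of the way from 0 to the control level. The log2 fold change was -0.97 ± 0.0249 (SE; edgeR adjusted p of 8.33e-23), and it ranged from -1.01 to -0.48 over the 13 alternatives. The fall of Ncoa4 was larger than that of either ferritin gene, as the 95% interval of its log2 fold change, from -1.03 to -0.92, lay below those of Ftl1, from -0.54 to -0.47, and Fth1, from -0.32 to -0.26.

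**Figure D2:**
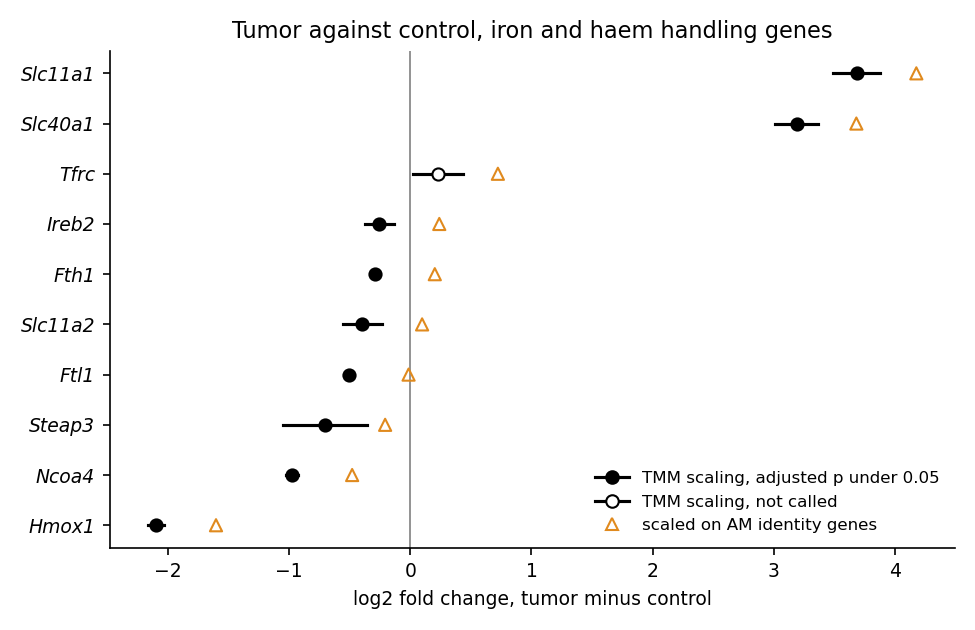
Log2 fold change of the tumor against the control libraries for the 10 members, with points and 95% intervals from edgeR under TMM scaling (filled where the adjusted p is under 0.05) and open triangles for scaling on AM identity genes. Slc11a1 and Slc40a1 stand to the right at 3.68 and 3.19 and Hmox1 to the left at -2.10 under TMM scaling, and the triangles of Fth1, Ireb2 and Slc11a2 lie on the other side of 0 from their points.

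Hmox1 (ENSMUSG00000005413, chromosome 8, 75093621 to 75100589) encodes haem oxygenase 1, the inducible enzyme that splits haem into biliverdin, carbon monoxide and iron. It had 8686 and 7571 counts in the control and 1910 and 2158 in the tumor libraries, or 463 and 480 against 110.3 and 110.0 CPM. The libraries of the tumor group were nearly equal and far below both control libraries. The log2 fold change was -2.10 ± 0.0322 (SE; edgeR adjusted p of 5.97e-28), and it ranged from -2.13 to -1.60 over the 13 alternatives. Among the 3535 genes called lower, 59 fell by at least as much on the log2 scale, Hmox1 included. Tumor libraries also held more haemoglobin transcript, as 3 of 3 tested erythroid genes were higher and the list summed to 0.907 and 1.52 CPM in the control against 14.4 and 15.3 CPM in the tumor libraries. Of the erythroid genes too low to test, Alas2, the erythroid enzyme of haem synthesis, had 1 and 2 counts in the control and 9 and 25 in the tumor libraries, and Hba-a2 had 1 and 0 against 7 and 11. The highest count was 3 for Slc4a1 and 4 for Klf1, and Epb42 had 0 counts in all 4 libraries. Their part in the level of Hmox1 was not tested.

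Slc40a1 (ENSMUSG00000025993, chromosome 1, 45908068 to 45926523, minus strand) encodes ferroportin, the iron exporter of animal cells, and carries 1 hairpin in the 5′ UTR. The control libraries held 149 and 127 counts of it and the tumor libraries 1273 and 1419, or 7.95 and 8.05 against 73.5 and 72.3 CPM. Libraries of a group differed by little, and the groups differed 9.11-fold, a log2 fold change of 3.19 ± 0.0870 (SE; edgeR adjusted p of 3.69e-22). Over the 13 alternatives the log2 fold change ranged from 3.17 to 3.68. Slc40a1 ranked between 8554 and 8560 by counts in the control libraries and between 2966 and 3033 in the tumor libraries. The neutrophil, eosinophil and hepatocyte markers given above were higher in the same libraries, and their part in the level of Slc40a1 was not tested.

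Ireb2 (chromosome 9, 54863789 to 54912530) encodes IRP2, one of the proteins that bind the hairpins. It was at 88.1 and 87.4 CPM in the control and 79.2 and 68.3 CPM in the tumor libraries, a wider spread in the tumor than in the control pair but without overlap. The log2 fold change was -0.25 ± 0.0575 (SE; edgeR adjusted p of 0.000450). It was -0.37 without tumor replicate 1 and -0.15 without tumor replicate 2. Scaling on AM identity genes turned it to 0.24 with an adjusted p of 0.000307.

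Ratios between members within a library do not depend on the scaling. The ratio of Fth1 to Ftl1 counts per kilobase was 4.71 and 4.82 in the control and 5.61 and 5.47 in the tumor libraries. The balance of the ferritin transcripts thus moved 1.16-fold towards the heavy chain, by more than the libraries of a group differed. The ratio of Tfrc to Fth1 was 0.000370 and 0.000325 in the control and 0.000523 and 0.000476 in the tumor libraries, 1.44-fold higher on average. The ratio of the exporter Slc40a1 to the importer Tfrc was 0.263 and 0.292 in the control and 2.06 and 2.24 in the tumor libraries, a 7.75-fold shift towards the exporter. The groups did not overlap in any of the 3 ratios, and they are given as values with no test. The ratios do depend on which cells gave the RNA. Granulocyte and hepatocyte markers were higher in the tumor libraries, and their part in these ratios was not tested. An exact two-sided permutation test with 2 libraries a group cannot give a p below 0.333.

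**Figure D3:**
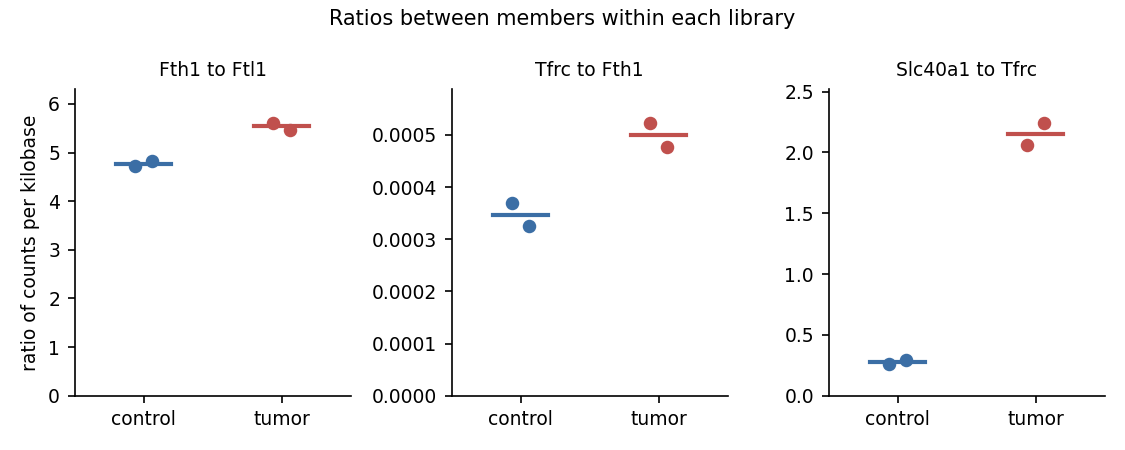
Ratios of counts per kilobase between members within each library, for Fth1 to Ftl1, Tfrc to Fth1 and Slc40a1 to Tfrc, with 1 point for each of the 2 control and 2 tumor libraries and a bar for their mean. The Slc40a1 to Tfrc ratio moves from a mean of 0.278 to 2.15, and the Fth1 to Ftl1 ratio from 4.77 to 5.54.

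The members were then set beside 68 other genes of iron and haem metabolism chosen by function. All 68 were matched to the table, the haemojuvelin gene by its older symbol Hfe2. Tested were 58, of which 16 were called higher and 22 lower, against the 29.0% and 24.8% of all genes given above. Their median log2 fold change was -0.02. Scaling on AM identity genes turned the split to 42 higher and 6 lower, where it called 69.9% of all genes higher and 5.08% lower. Under it each of the 7 lists described next held more genes called higher than lower, and the counts of each list are to be read against these shares and the 29.0% and 24.8% under TMM scaling. At least 2-fold changes under TMM scaling were seen in 8 genes that were higher and 3 that were lower, against 12.9% and 3.01% of all genes.

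The iron uptake list held the widest range, with 4 of 8 tested genes higher and 3 lower, or 6 and 1 under scaling on AM identity genes. Lcn2, which encodes the siderophore-binding protein lipocalin 2, had 7 and 8 counts in the control and 2562 and 2985 in the tumor libraries, 0.440 ± 0.0944 against 150.04 ± 2.96 CPM (SD, n = 2). Ltf, which encodes the iron-binding granule protein lactoferrin and is itself one of the neutrophil markers, reached 257 ± 4.34 CPM from 0.345 ± 0.0400. Steap4, a metalloreductase gene related to Steap3, rose from 0.749 ± 0.0730 to 116 ± 5.78 CPM, so the related reductases moved in opposite directions under TMM scaling. The 10 neutrophil markers were higher in the same libraries, and their part in the levels of Lcn2, Ltf and Steap4 was not tested. Tfr2, the hepatocyte and erythroid relative of Tfrc, went from 0 and 3 counts in the control to 41 and 74 in the tumor libraries and was at least 12.5-fold higher, or at least 19.8-fold without tumor replicate 1. Slc39a14, which encodes the metal importer ZIP14, went from 110.6 ± 0.889 to 49.0 ± 1.92 CPM and so fell by 1.17 on the log2 scale. Trf, which encodes transferrin, was at 143 ± 0.761 against 128 ± 6.51 CPM, a log2 fold change of -0.15 ± 0.0413 (SE) that scaling on AM identity genes turned to 0.34.

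In haem uptake and transport, 2 of 9 tested genes were higher and 4 lower, which scaling on AM identity genes turned to 6 and 2. Cd163, the receptor for haemoglobin bound to haptoglobin, had 122 and 87 counts in the control and 22 and 31 in the tumor libraries, a log2 fold change of -2.07 ± 0.242 (SE; edgeR adjusted p of 3.01e-08). Of the monocyte and interstitial macrophage genes, Cx3cr1, C1qa, C1qb and C1qc were lower in the same libraries, with log2 fold changes of -1.71, -0.87, -1.27 and -1.09, Ly6c2 and Ccr2 were higher, and Folr2 went from 5 and 3 counts to 0 in both tumor libraries. Their part in the level of Cd163 was not tested. The plasma carriers moved the other way. Hp, the haptoglobin gene, rose from 4.39 ± 0.328 to 169.9 ± 4.62 CPM and Hpx, the haemopexin gene, from 0.679 ± 0.205 to 19.8 ± 1.83 CPM, log2 fold changes of 5.28 and 4.88. Hepatocytes make both proteins, and 10 of 10 hepatocyte markers were higher in the tumor libraries, 9 of them at the floor and 7 at 0 in both control libraries. The neutrophil markers given above were higher in the same libraries too. The part of either set of markers in the levels of Hp, Hpx, Tfr2, Hamp and Cp was not tested. Slc48a1, which moves haem out of the phagolysosome, changed by -0.32 under TMM scaling and by 0.17 under scaling on AM identity genes. Flvcr1, a haem exporter gene, was at 30.7 ± 2.70 and 31.9 ± 0.214 CPM and did not pass the threshold, with an adjusted p of 0.578, whereas scaling on AM identity genes called it higher at 0.55.

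**Figure D4:**
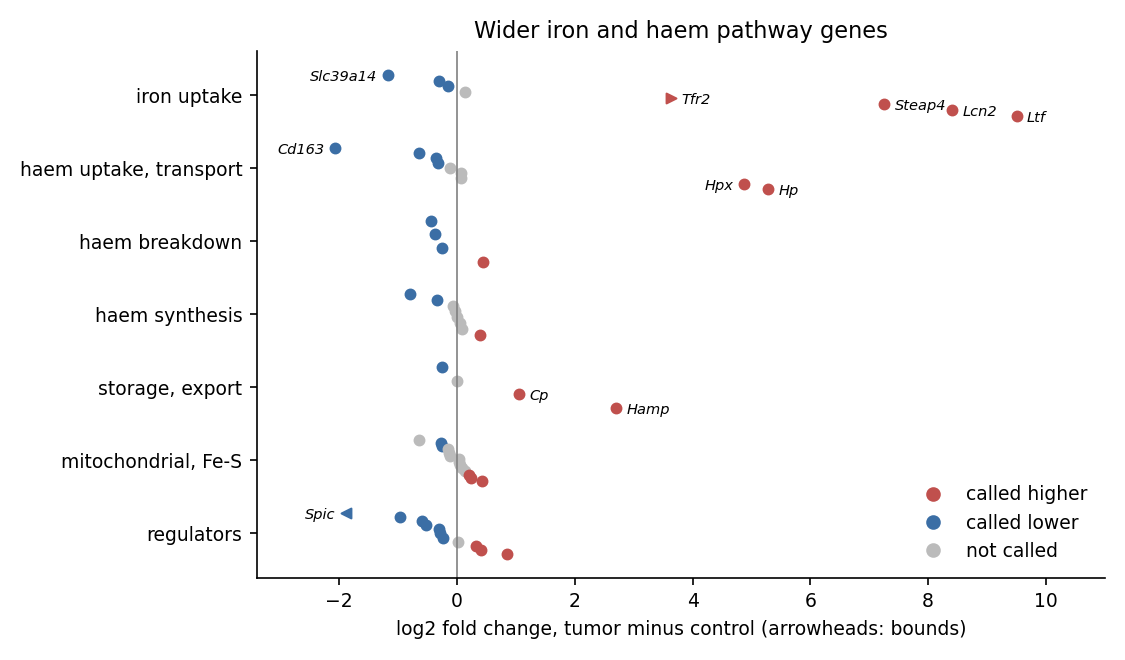
Log2 fold change of the tumor against the control libraries for the tested genes of 7 iron and haem gene groups under TMM scaling, with red for called higher, blue for called lower, grey for not called and arrowheads for bounds of genes at the floor in 1 group. Most genes lie within 1 of 0, and Ltf, Lcn2, Steap4, Hp and Hpx lie between 4.88 and 9.50.

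The genes of haem breakdown downstream and beside Hmox1 changed by far less than Hmox1. Hmox2, the constitutive haem oxygenase, had a log2 fold change of -0.25 ± 0.0539 (SE). Blvra and Blvrb, the biliverdin reductases, had -0.44 ± 0.0446 and -0.37 ± 0.0887 (SE). These 3 genes were called lower under TMM scaling, and scaling on AM identity genes turned them to 0.24, 0.06 and 0.13, with adjusted p of 0.000245, 0.246 and 0.200, where Hmox1 remained lower at -1.60. Por, the reductase that supplies electrons to haem oxygenase, was the list's 1 gene called higher, at 0.45, and was chosen for mention after its value was seen. Of the 8 tested genes of haem synthesis 1 was higher and 2 were lower, and scaling on AM identity genes gave 6 and 1.

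In storage and export beyond the members, 2 of 4 tested genes were higher and 1 was lower, or 4 and 0 under scaling on AM identity genes. Cp, which encodes the ferroxidase ceruloplasmin that works with ferroportin, had 62 and 46 counts in the control and 77 and 165 in the tumor libraries. Its log2 fold change of 1.05 ± 0.242 (SE) rested on tumor replicate 2, without which it was 0.50 with an adjusted p of 0.0963. Heph, the gene of the membrane ferroxidase hephaestin, went from 0 counts in either control library to 6 and 10 in the tumor group and fell under the count filter. Hamp, which encodes hepcidin, the hormone that removes ferroportin from the membrane, had 8 and 2 counts in the control and 29 and 42 in the tumor libraries. Its log2 fold change was 2.70 ± 0.498 (SE). Without control replicate 2 it was 2.13, and no fold is given without control replicate 1, since the other control library lay at the floor. Of the 14 mitochondrial and iron-sulfur cluster genes 3 were higher and 2 lower, each by less than 2-fold. Scaling on AM identity genes called 11 of them higher and 0 lower.

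Among the regulators 3 of 11 tested genes were higher and 7 lower, against 29.0% and 24.8% of all genes, and scaling on AM identity genes turned this to 7 higher and 2 lower, against 69.9% and 5.08%. Fbxl5, which encodes the iron-sensing ubiquitin ligase subunit that marks IRP2 for degradation, rose from 202 ± 3.76 to 364 ± 7.51 CPM (SD, n = 2). Its log2 fold change of 0.85 ± 0.0307 (SE) became 1.34 under scaling on AM identity genes. Aco1, which encodes IRP1, had -0.24 ± 0.0410 (SE), and scaling on AM identity genes turned it to 0.26. Herc2, a ubiquitin ligase gene that acts on NCOA4 and FBXL5, had -0.31 ± 0.0433, which became 0.18.

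The transcription factors that act on Hmox1, the ferritin genes and Slc40a1 moved in opposite directions. Nfe2l2, which encodes their activator NRF2, fell from 310.4 ± 1.99 to 159 ± 4.70 CPM, a log2 fold change of -0.97 ± 0.0328 (SE) that was -0.47 under scaling on AM identity genes. Bach1, which encodes a haem-sensitive repressor of the same sites, rose from 119 ± 4.28 to 159 ± 4.63 CPM, a log2 fold change of 0.42 ± 0.0406 (SE). Spic, the gene of a factor known from iron-recycling splenic macrophages, went from 12 and 15 counts in the control to 2 and 0 in the tumor libraries and was at least 3.70-fold lower. Nr1h3, which encodes the liver X receptor alpha, had -0.60 ± 0.0886 (SE), and -0.11 with an adjusted p of 0.271 under scaling on AM identity genes. Nfe2l2 and Hmox1 were lower, and Bach1 and Slc40a1 higher, under both scalings. The part of these factors in the levels of Hmox1, the ferritin genes and Slc40a1 was not tested. Nor was the part of the granulocyte and hepatocyte markers in the levels of the factors.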

How the data were processed

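Counts per gene were obtained by the authors and deposited without normalization, as 1 column per library. Per the labels and the methods of the study, total RNA was extracted with TRIzol, the NEBNext Ultra RNA kit was used for libraries, and paired-end reads were aligned with HISAT2 2.0.5 and assigned to genes with featureCounts. DESeq2 is named in the submitters' processing notes, with no role given. The genome build, annotation, strand setting and handling of multiply matching reads are not given in the sources used here. Identical coordinates were found for 98.3% of the genes matched to GENCODE release M 21, including 9 of the 10 members (not Fth1), so GRCm38 was taken as the build. Gene lengths are those of the deposited table.

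The analysis used edgeR 4.0.16 under R 4.3.3. Low genes were removed with filterByExpr (minimum count 10), libraries were scaled by TMM, and glmQLFit and glmQLFTest were run with group as the single term on all 14256 genes, with 2 residual degrees of freedom. The study names no test for these data. Standard errors were derived from the fold change and its F statistic. CPM values are counts brought to a TMM-scaled library size of 1000000. Log2 CPM used for correlations had a prior count of 2. The control pair correlated at 0.994, the tumor pair at 0.992, and libraries of different groups at 0.905. Counts of paired libraries differed by more than counting noise. A bound of a fold was computed from the lower CPM of 1 group and the higher floor of 3 counts in the other.

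Members and gene lists were chosen with earlier results of these data known. Named among other pathway genes were those called with at least a 2-fold change and a mean of 20 counts in the higher group, and direct partners of members. The symbol of 1 erythroid marker was not matched and is not analysed here. Alternatives were DESeq2 size factors, total counts, scaling on the AM identity genes, 2 other filters, DESeq2 1.42.0, limma-voom (limma 3.58.1), the replicate number as a block, an adjusted p under 0.01, addition of ferritin pseudogene rows and leaving out each library.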

Additional observations from a re-analysis of the deposited data

How the results depend on the processing

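Scaling on the AM identity genes was the setting that moved most results. It gave 5 members called higher and 2 lower in place of 2 and 7, and 42 other pathway genes higher and 6 lower in place of 16 and 22, as it raised the median log2 fold change of all genes from 0.02 to 0.51 and called 69.9% of them higher and 5.08% lower. It turned Fth1 (0.20), Ireb2 (0.24), Trf (0.34), Slc48a1 (0.17), Hmox2 (0.24), Aco1 (0.26) and Herc2 (0.18) from called lower to called higher. Slc11a2 (0.10), Blvra (0.059) and Blvrb (0.13) changed sign and were no longer called. Flvcr1, which was not called, reversed to -0.042 without control replicate 1. Trf was also not called with total counts or without tumor replicate 2. The number of members called ranged from 7 to 10 over all alternatives, in which 31.3% (no filter on low counts) to 75.0% (scaling on AM identity genes) of all genes were called, and DESeq2 called 9 members and 41.1% of all genes. When 1 library was left out 9 to 10 members and 34 to 38 other pathway genes were called, against 43.5% to 50.3% of all genes. These fits assume that the lone library of a group varies like the other group. The Slc40a1 to Tfrc ratio ranged from 7.37 to 8.17-fold, Tfrc to Fth1 from 1.35 to 1.54-fold and Fth1 to Ftl1 from 1.15 to 1.18-fold when 1 library was left out. With the replicate number as a block, 10 members were called, as Tfrc then had a log2 fold change of 0.23 and an adjusted p of 0.0491, and 37 other pathway genes. Libraries with the same number share no stated origin, and their deviations correlated at -0.00278 across genes, so the numbers were not taken as pairs. Depth limits Steap3, Hamp, Cp, Spic and Tfr2, which rest on few counts.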
